A study of Mus musculus with 3 samples.

Results

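The enzymes described here modify collagen after its chains are made. They are 10 genes fixed by name, with no threshold on a measured value: the prolyl 4-hydroxylase alpha subunits P4ha1 and P4ha2, the lysyl hydroxylases Plod1, Plod2 and Plod3, and the lysyl oxidase (LOX) family Lox, Loxl1, Loxl2, Loxl3 and Loxl4. The set was chosen with earlier results of these data known, so it is not independent of them. All 10 were found among the 27755 genes listed for the culture and the tail and among the 25936 listed for D6 paraxial mesoderm (PM). The question of the comparison is how far the machinery that matures collagen in tendon and fibrocartilage cells made in a dish resembles that of the same cells in the embryo.

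Collagen chains are hydroxylated in the endoplasmic reticulum before they leave the cell. Prolyl 4-hydroxylases, which pair an alpha subunit with the protein disulfide isomerase P4hb, make the hydroxyproline that holds the triple helix together. Lysyl hydroxylases make hydroxylysine, the anchor for sugars and for mature crosslinks, with Plod2 acting mainly on the telopeptides at the ends of the helix. Outside the cell, Lox and its relatives oxidize lysine and hydroxylysine side chains, which then form the crosslinks that give tendon its tensile strength. All these hydroxylases need oxygen, iron, 2-oxoglutarate and ascorbate, and the LOX enzymes need copper and oxygen.

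Single-cell libraries from 3 sources were compared, with 1 library per condition. The culture library (7821 cells, median 5622 UMIs per cell) was the whole D10 monolayer, grown from mouse embryonic stem cells derived from ScxGFP tendon reporter mice, kept in LDN-193189 and then LDN-193189 with CHIR to form PM, and switched at D6 to TGFβ1, SAG and FGF2. The tail library (2052 cells, median 13512 UMIs) was the whole E14.5 mouse tail, from ScxGFP embryos of C57BL6 strain whose number is not given in the sources used here. The D6 PM library (5954 cells, median 8171 UMIs) was made from embryoid bodies before TGFβ1, SAG and FGF2 were added. All 3 were depleted of dead cells and not sorted for ScxGFP, and which of the reporter stem cell lines was used is not given. The authors' cluster codes, shared by culture and tail, were used as deposited: code 1 (tendon, 2964 culture and 685 tail cells), code 2 (proliferating tendon, 1353 and 186 cells) and code 4 (called fibrocartilage-like from its markers, 855 and 241 cells). Levels are in CPM. For each code and library, the UMIs (unique molecular identifiers, 1 per captured transcript) of the gene were added up and divided by those of all genes, and the quotient was scaled to a total of 1000000. Intervals in parentheses are exact 95% intervals that cover counting error only. Because cells are not replicates and each condition has 1 library, no p-value was computed, and culture, day and library cannot be told apart.

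The files give the clusters as codes without names. The cell numbers of codes 1 and 2 match the tendon and proliferating tendon clusters of the study, but by cell number its fibrocartilage name falls on code 3 and not on code 4. Code 3 (1088 culture and 49 tail cells) had summed cartilage marker levels of 47.4 and 22.5 CPM and, in the culture, 5102 CPM of pluripotency markers, so the name goes against its marker genes and was not used for it. Scx, the transcription factor that marks tendon progenitors, lay at 2410.3, 2699 and 1852 CPM in codes 1, 2 and 4 of the culture and at 1472, 1664 and 1905 CPM in the tail. The summed level of 5 cartilage genes (Col2a1, Acan, Sox9, Col9a1 and Matn4) was highest in code 4 in both libraries, at 4193 CPM in the culture and 8292 CPM in the tail, and the summed level of the proliferation genes was highest in code 2 among the 3 codes, at 3307 and 3327 CPM. In codes 1 and 4 it was higher in the culture, at 413 and 373 CPM against 79.5 and 100.4 CPM in the tail, and its part in the member ratios was not tested. The summed level of 8 tendon genes was higher in the culture, at 7357, 7072 and 4529 CPM in codes 1, 2 and 4 against 6381, 5063 and 2804 CPM in the tail. Among them, Tnmd and Kera were lower in the culture, as were Col1a1 in code 1 and Scx in code 4. Tnmd, which encodes tenomodulin, lay at 23.6 CPM in code 1 of the culture and 93.0 CPM in the tail, and Kera had no UMI in culture codes 1, 2 and 4, against 20.1 CPM in code 1 of the tail. Summed erythroid marker levels were 589, 2032 and 1550 CPM in tail codes 1, 2 and 4, and at most 2.59 CPM in the same codes of the culture. When mitochondrial, ribosomal protein and haemoglobin genes were left out of the total, all 30 member ratios stayed within their counting intervals.

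The prolyl hydroxylase pair is shown with the DNA before its start sites, since these genes differed strongly between culture and tail, as given further on. Promoter sequence was found for 5 of the 10 members in a RefSeq table of GRCm38.p6 (Plod1, Plod3, P4ha1, P4ha2 and Loxl4). Lox, Loxl1, Loxl2, Loxl3 and Plod2 had no entry. The 250 bases before the start are printed 5′ to 3′ on the strand of the gene, at chr10:59323046-59323295 (plus strand) for P4ha1 and at chr11:54100674-54100923 (plus strand) for P4ha2. Capitals mark ACGTG and GCGTG on either strand, the core letters of the element bound by hypoxia-inducible factors, so that a match on the other strand reads CACGT or CACGC.
P4ha1: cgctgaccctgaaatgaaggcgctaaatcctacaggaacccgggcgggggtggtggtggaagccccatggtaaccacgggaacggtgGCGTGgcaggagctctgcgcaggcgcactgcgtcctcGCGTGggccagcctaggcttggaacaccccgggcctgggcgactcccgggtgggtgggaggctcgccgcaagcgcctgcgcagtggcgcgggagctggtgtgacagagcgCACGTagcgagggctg
P4ha2: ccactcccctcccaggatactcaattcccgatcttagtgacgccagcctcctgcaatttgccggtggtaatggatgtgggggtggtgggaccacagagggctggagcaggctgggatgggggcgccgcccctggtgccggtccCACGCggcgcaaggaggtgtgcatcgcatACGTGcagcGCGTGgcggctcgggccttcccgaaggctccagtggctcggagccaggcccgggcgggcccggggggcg

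Both promoters held 3 matches, 1 of ACGTG and 2 of GCGTG. In P4ha1 the ACGTG match lay 16 to 12 bases before the start, on the other strand, and in P4ha2 it lay 78 to 74 bases before the start, with a GCGTG match at 69 to 65. Plod3 held 4 matches, while Plod1 and Loxl4 held 1 each, so that 5 of the 5 members with an entry had at least 1. Such short words are common: either of them occurred in 38.6% of the 32851 promoters of this table over the same 250 bases, ACGTG in 16.6% and GCGTG in 28.2%. A match is a description of the letters and says nothing of binding, which was not measured here.

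Both prolyl hydroxylase alpha subunits were several times higher in the culture than in the tail. P4ha2 lay at 499 CPM in code 1, 533 CPM in code 2 and 777 CPM in code 4 of the culture, and at 69.6, 43.7 and 66.5 CPM in the same codes of the tail. All 3 culture levels were above all 3 tail levels, and the ratios were 7.17 (6.63 to 7.75), 12.2 (10.6 to 14.2) and 11.7 (10.2 to 13.5), the largest of the 9 members found in enough cells to be compared by the rule given further on. P4ha1, the more widely expressed alpha subunit, lay at 768, 753 and 1065 CPM in the culture and at 161, 167 and 326 CPM in the tail. Its ratios were 4.78 (4.54 to 5.04), 4.52 (4.19 to 4.89) and 3.26 (3.05 to 3.50). The lowest culture level of P4ha1 was more than 2-fold the highest tail level.

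The balance between these alpha subunits also differed. P4ha2 made up 39.4% (38.7 to 40.1) of the UMIs of the pair in code 1 of the culture, 41.4% (40.6 to 42.2) in code 2 and 42.2% (41.0 to 43.4) in code 4. In the tail the share went down from 30.2% (28.4 to 32.2) in code 1 to 20.8% (18.2 to 23.6) in code 2 and 16.9% (14.9 to 19.1) in code 4. The P4ha2 share was thus nearly flat over the 3 culture codes and lower in the dividing and cartilage-type cells of the tail.

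Of the lysyl hydroxylation genes, Plod2 and Plod1 were more than 2-fold higher in the culture in each code, and Plod3 in code 2 alone. Plod2, the telopeptide lysyl hydroxylase, lay at 688, 827 and 1634 CPM in codes 1, 2 and 4 of the culture, and at 118, 130 and 320 CPM in the tail. The ratios were 5.85 (5.51 to 6.22), 6.33 (5.82 to 6.91) and 5.11 (4.79 to 5.47). Plod1, which acts on the helical part of the chain, lay at 226, 235 and 328 CPM in the culture and at 74.8, 71.6 and 152 CPM in the tail, with ratios of 3.03 (2.80 to 3.28), 3.29 (2.92 to 3.71) and 2.15 (1.94 to 2.40). Plod3, which also transfers sugars to hydroxylysine, was closest to the tail, with ratios of 1.98 (1.77 to 2.22), 2.003 (1.68 to 2.40) and 1.60 (1.33 to 1.94). Within the family, the share of Plod2 was 69.2%, 73.1% and 79.7% in culture codes 1, 2 and 4, against 50.6%, 55.1% and 60.6% in the tail, with no overlap of the counting intervals within a code.

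**Figure D1:**
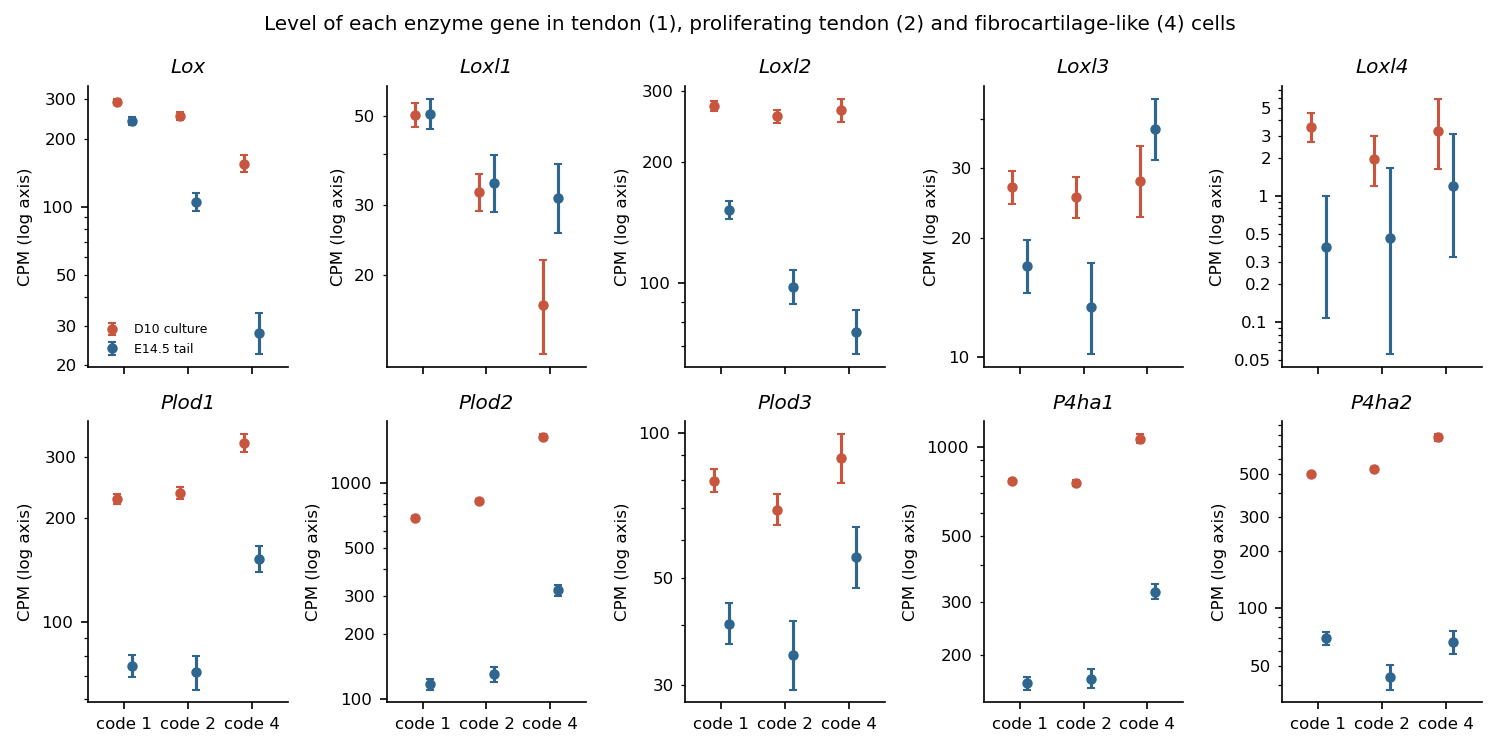
Level in CPM (log axis, a scale for each gene) of the 10 enzyme genes in codes 1, 2 and 4 of the D10 culture and the E14.5 tail, with exact Poisson 95% intervals. P4ha1, P4ha2, Plod1 and Plod2 were more than 2-fold higher in the culture in each code. Lox, Loxl2 and Plod3 were also higher there in each code, by less than 2-fold in at least 1 of them. Loxl1 was nearly equal in codes 1 and 2. Loxl3 was higher in the tail in code 4 before thinning, while at equal depth its interval held 1.

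Members of the LOX family differed from each other. Lox, the main lysyl oxidase of fibrillar collagen and elastin, lay at 293, 252 and 155 CPM in codes 1, 2 and 4 of the culture. In the tail it lay at 240 CPM in code 1, 105 CPM in code 2 and 27.8 CPM in code 4. The libraries were thus close in tendon cells, with a ratio of 1.22 (1.16 to 1.28), and apart in proliferating tendon cells, at 2.40 (2.17 to 2.66), and in fibrocartilage-like cells, at 5.59 (4.47 to 7.06).

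Loxl2, which acts on collagen IV and fibrillar collagens, showed a similar pattern at a smaller range. It lay at 275, 259 and 268 CPM in the culture and at 152, 97.9 and 75.9 CPM in the tail, so that the ratios were 1.81 (1.71 to 1.92), 2.65 (2.39 to 2.94) and 3.53 (3.07 to 4.08). The culture level was nearly the same in the 3 codes, and the tail level was lower in code 4 than in code 1, at a ratio of 0.499 (0.435 to 0.571).

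Loxl1, which is needed for elastic fibres, was the member nearest to 1 in codes 1 and 2. It lay at 50.1 and 32.2 CPM in codes 1 and 2 of the culture and at 50.5 and 34.0 CPM in the tail, and both ratios, 0.992 (0.888 to 1.11) and 0.949 (0.780 to 1.16), had an interval that held 1. In code 4 it was lower in the culture, at 16.8 against 31.1 CPM, a ratio of 0.541 (0.383 to 0.756). Loxl3 also turned around in code 4. It lay at 26.9, 25.4 and 28.0 CPM in the culture and at 17.0, 13.4 and 37.8 CPM in the tail, with ratios of 1.58 (1.32 to 1.90), 1.90 (1.42 to 2.56) and 0.740 (0.560 to 0.976). Thinning to 3000 UMIs per cell, without the shallower cells, left 58 culture and 19 tail UMIs of Loxl3 in code 4. The ratio of 1.14 (0.671 to 2.03) had an interval that held both 1 and 0.740, so that no direction was detectable at equal depth. In code 2 the thinned ratio was 1.32 (0.710 to 2.73, 11 tail UMIs), and its interval held 1 as well. Loxl4 was too sparse for a level comparison, with 59, 21 and 11 UMIs in the culture and 4, 2 and 4 UMIs in the tail, in at most 1.72% of the cells of any of these groups.

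A member was counted as higher in 1 library when the CPM ratio was at least 2, its counting interval did not hold 1 and at least 10% of cells had a UMI of the gene in the culture or in the tail. In each code 9 members met this last condition, and Loxl4 did not. In code 1, 4 of 9 were higher in the culture (P4ha1, P4ha2, Plod1 and Plod2), against 5.76% of the 10418 genes tested by the same rule, and 0 of 9 were higher in the tail, against 13.6%. Loxl2 and Plod3 were added in code 1, which made 6 of 9, when ratios were centred on the median gene (7.68% of all genes) or scaled by TMM (8.56%). In code 2, 7 of 9 were higher in the culture, against 5.5% of 11232 genes, and 0 in the tail, against 13.6%. The 2 members that were not counted there were Loxl1 and Loxl3. At equal depth Lox fell under the 2-fold limit as well, with a ratio of 1.65 (1.32 to 2.08), which left 6 members, against 7.34% of the 5924 genes tested there. In code 4, 6 of 9 were higher in the culture (P4ha1, P4ha2, Plod1, Plod2, Lox and Loxl2), against 4.86% of 9986 genes, and 0 in the tail, against 13%. The median log2 ratio of all 10 members, with the sparse Loxl4, was 1.29, 1.56 and 1.58 in codes 1, 2 and 4. Among the 9 tested, the middle log2 ratio was 0.99 (Plod3) in code 1, 1.40 (Loxl2) in code 2 and 1.71 (P4ha1) in code 4. Over all genes tested the median was -0.21, -0.18 and -0.18. Plod3 lay at the 2-fold limit in codes 1 and 2, and at equal depth at 2.004 (1.60 to 2.54) and, with 12 tail UMIs, at 3.09 (1.74 to 6.05). With a limit of 1.5 in place of 2, 7 of 9 were higher in the culture in code 1 (11.1% of all genes), and 1 of 9, Loxl1, was higher in the tail in code 4 (24.2%). With a limit of 3, 4 of 9 were higher in the culture in code 2 (2.55%). Among all genes tested in code 4, 0.250% had a ratio above that of P4ha2, 0.831% above that of Lox and 0.961% above that of Plod2. The 3 codes come from the same pair of libraries and are not independent of each other.

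**Figure D2:**
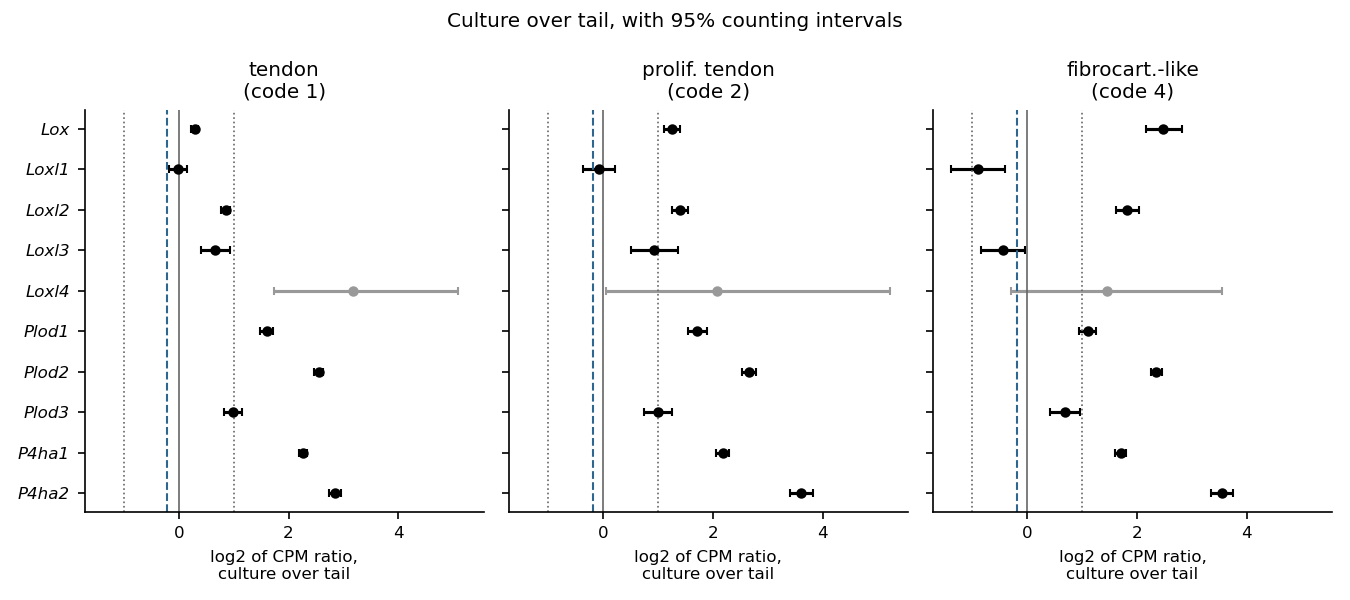
Log2 of the CPM ratio of culture over tail for each enzyme gene in codes 1, 2 and 4, with exact 95% counting intervals. Dotted lines mark 2-fold, the dashed line is the median of all genes tested and gray marks Loxl4, which was found in too few cells. P4ha2 had the largest ratio of the tested members in each code, and Lox moved from 1.22 in code 1 to 5.59 in code 4.

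How the culture-to-tail ratio itself differed between codes was given as a ratio of ratios. From code 1 to code 4 it was 4.58 (3.65 to 5.74) for Lox, 1.95 (1.68 to 2.27) for Loxl2 and 1.63 (1.39 to 1.91) for P4ha2. It was below 1 for Loxl1 at 0.545 (0.386 to 0.768), Loxl3 at 0.468 (0.339 to 0.645), P4ha1 at 0.683 (0.627 to 0.744), Plod1 at 0.711 (0.623 to 0.811) and Plod2 at 0.874 (0.799 to 0.955). Lox therefore had the largest shift between tendon and fibrocartilage-like cells of the 10 genes. From code 1 to code 2, only Lox at 1.97 (1.76 to 2.20), Loxl2 at 1.46 (1.30 to 1.65) and P4ha2 at 1.70 (1.45 to 2.01) had an interval without 1 among the 10 members. At equal depth the Lox ratio of culture over tail was 1.26 (1.14 to 1.39) in code 1 and 1.65 (1.32 to 2.08) in code 2, with overlapping intervals. The intervals of Loxl3 overlapped there between codes 1 and 4 as well, at 1.51 (1.04 to 2.24) and 1.14 (0.671 to 2.03). Those of Loxl2 overlapped between codes 1 and 2, at 1.92 (1.70 to 2.18) and 2.61 (1.99 to 3.51). For Plod2 the order of codes 1 and 4 turned at equal depth, at 5.32 (4.71 to 6.03) and 5.92 (5.14 to 6.86), with overlapping intervals.

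Within a library, several hydroxylases were higher in fibrocartilage-like than in tendon cells, and Lox and Loxl1 were lower. The clusters had been made from gene expression in the same cells, so these values are a description of the clusters. In the tail, code 4 over code 1 was 2.72 (2.501 to 2.96) for Plod2, 2.04 (1.82 to 2.28) for Plod1, 2.03 (1.88 to 2.20) for P4ha1 and 1.38 (1.15 to 1.64) for Plod3. Lox ran the other way at 0.116 (0.0932 to 0.143), as did Loxl2 at 0.499 (0.435 to 0.571) and Loxl1 at 0.617 (0.494 to 0.764). Loxl3 was the LOX family gene with more in tail code 4, at 2.22 (1.75 to 2.82). At equal depth this Loxl3 ratio was 1.58, with 19 UMIs in code 4 and 34 in code 1. P4ha2 was level at 0.955 (0.817 to 1.11).

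In the culture, Plod2 at 2.38 (2.30 to 2.45), Plod1 at 1.45 (1.35 to 1.55) and P4ha1 at 1.39 (1.34 to 1.44) were again higher in code 4 than in code 1. P4ha2 joined them at 1.56 (1.49 to 1.63). Lox was lower at 0.531 (0.484 to 0.582) and Loxl1 at 0.336 (0.252 to 0.441), while the intervals of Loxl2, Loxl3, Loxl4 and Plod3 held 1. Lox thus made up 45.1%, 44.2% and 33.0% of the LOX family UMIs in codes 1, 2 and 4 of the culture, and 52.1%, 41.9% and 16.0% in the tail. In code 2 over code 1, P4ha2 was lower in the tail at 0.627 (0.531 to 0.737) and slightly higher in the culture at 1.07 (1.03 to 1.10), and Lox was lower in both, at 0.439 (0.396 to 0.485) in the tail and 0.862 (0.822 to 0.904) in the culture.

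**Figure D3:**
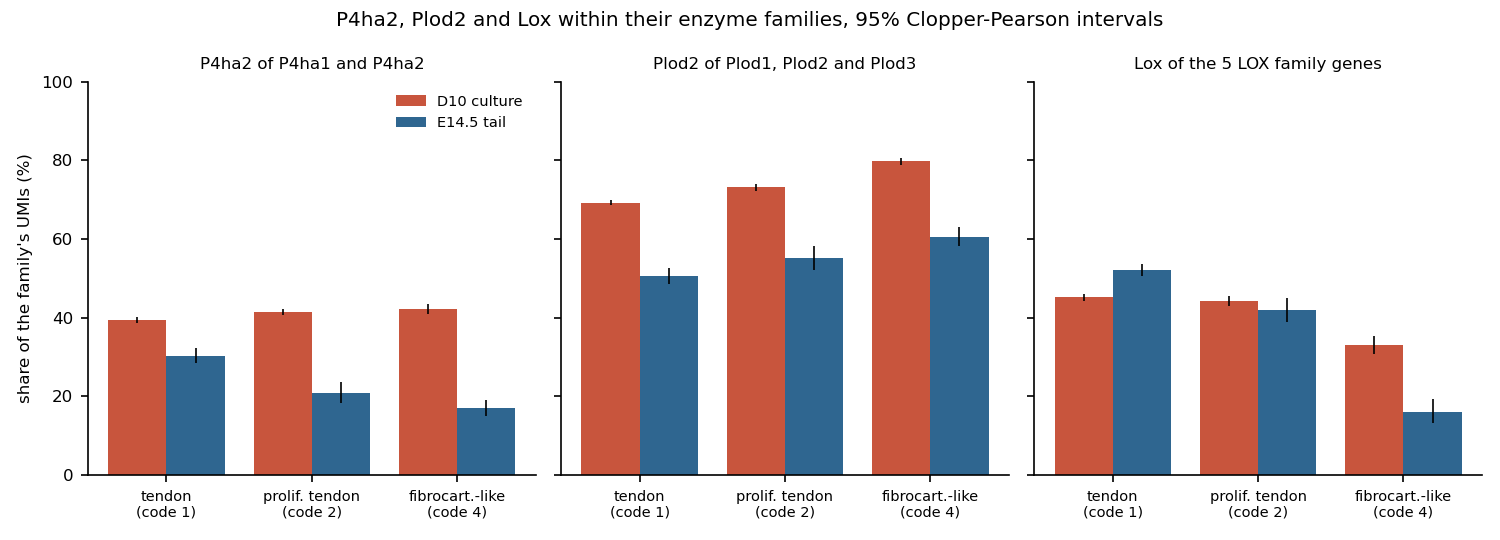
Share of a family's UMIs (percent) that belong to P4ha2, Plod2 and Lox in codes 1, 2 and 4 of the D10 culture and the E14.5 tail, as bars with Clopper-Pearson 95% intervals. P4ha2 and Plod2 had larger shares in the culture in each code, and in fibrocartilage-like cells Lox made up 33.0% of family UMIs in the culture, against 16.0% for the tail.

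The difference was seen in cells and not only in sums. Cells were thinned to 3000 UMIs, and shallower cells were left out. These were 369, 12 and 214 cells in codes 1, 2 and 4 of the culture, and 7, 0 and 1 in the tail. The shares thus describe the deeper cells of the culture. Among the cells kept, P4ha2 had a UMI in 70.4%, 74.4% and 86.6% of the cells of codes 1, 2 and 4 of the culture, and in 18.0%, 8.60% and 13.3% of the tail cells. Plod2 was found in 79.5%, 84.6% and 96.4% of culture cells and in 28.9%, 29.0% and 50.8% of tail cells. Lox was found in 49.3%, 46.5% and 35.4% of culture cells and in 37.0%, 26.9% and 7.50% of tail cells, so that the spread over codes was wider in the tail. Before thinning, P4ha2 was found in 81.4%, 90.7% and 89.7% of culture cells and in 51.4%, 48.9% and 43.2% of tail cells, and the median depths were 4918.5, 7324 and 3696 UMIs per cell in the culture and 13463, 22536 and 13136 in the tail. Among the erythroid cells of the tail (code 12, 125 cells at 3000 UMIs, median depth before thinning 8391.5 UMIs), which should lack these genes, Lox and P4ha1 were found in 0.8% of cells each and P4ha2, Plod2 and Loxl2 in none of the 125, which allows a share of up to 2.4% at the floor of 3 counts. No such background share was measured in the culture.

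Of the 10 genes, the median cell held 4, 4 and 5 at 3000 UMIs in codes 1, 2 and 4 of the culture, against 2, 1 and 2 in the tail. At least 5 were found in 45.2%, 46.2% and 54.1% of culture cells and in 4.72%, 1.08% and 2.92% of tail cells. None was found in 13.4%, 18.8% and 10.8% of tail cells and in at most 0.694% of culture cells of these codes. P4ha1 and P4ha2 were found together in 61.5% (59.6 to 63.4) of the cells of culture code 1, where the product of the single shares gives 57.4%, and in 7.52% (5.65 to 9.77) of tail code 1, where it gives 6.34%. Lox varied most between tail tendon cells, with a variance of 2.06 times its mean UMI count at equal depth, where pure counting gives about 1. In the culture, leaving aside the sparse Loxl4, the same measure was highest for Plod2, at 1.89, 2.06 and 2.08 in the 3 codes.

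**Figure D4:**
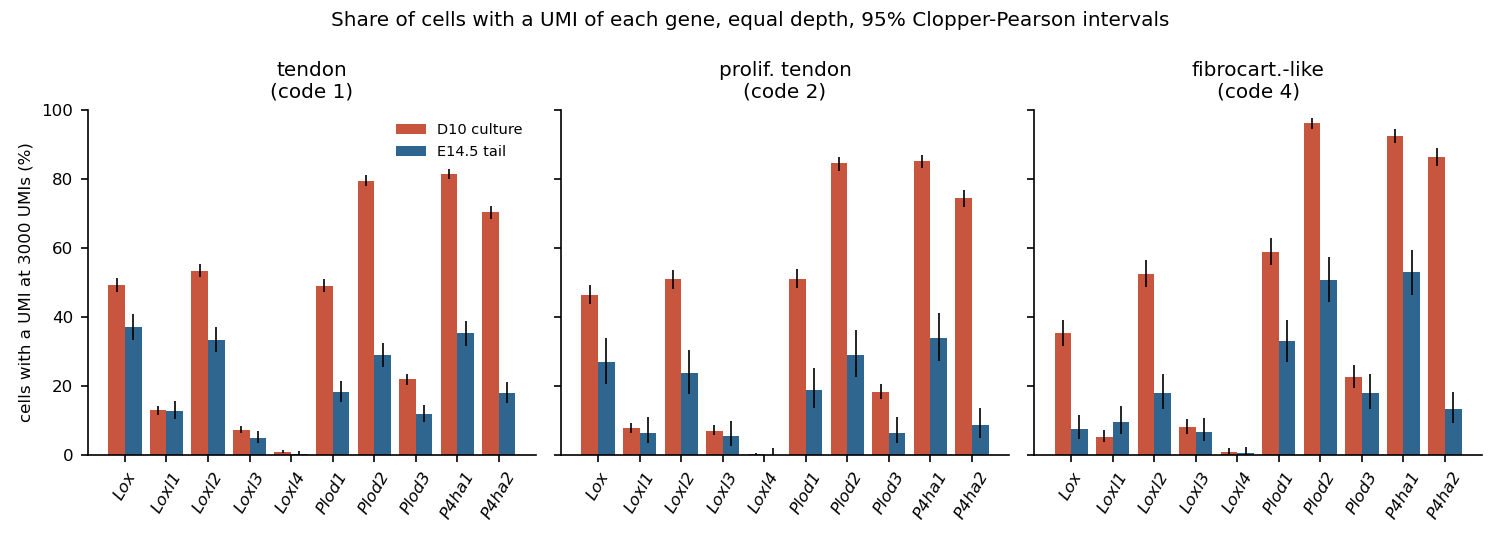
Share of cells with at least 1 UMI of each enzyme gene (percent) after thinning to 3000 UMIs, in codes 1, 2 and 4 of the D10 culture and the E14.5 tail, with Clopper-Pearson 95% intervals. P4ha2 ranged from 70.4% to 86.6% in the culture and from 8.60% to 18.0% in the tail, and Loxl1 was at 12.9% and 12.8% in code 1.

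Collagen chains, the substrates of these enzymes, were not higher in the culture as a sum. Over 18 collagen genes the culture over tail ratio of the summed CPM was 0.842, 0.905 and 0.758 in codes 1, 2 and 4, and some chains, such as Col11a1 at 2.51 and Col4a1 at 2.33 in code 1, were higher in the culture. Per 1000 collagen UMIs, the 10 enzymes together had 253, 290 and 386 UMIs in codes 1, 2 and 4 of the culture and 67.5, 61.3 and 73.4 UMIs in the tail. The ratio of these was 3.75 (3.67 to 3.83), 4.73 (4.56 to 4.92) and 5.27 (5.08 to 5.46). By family it was largest for the prolyl hydroxylase alpha subunits, at 6.54, 6.76 and 6.19, close to that for the lysyl hydroxylases, at 5.08, 5.28 and 5.13, and smaller for the LOX family, at 1.68, 2.52 and 3.58.

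Other genes of the pathway were then counted by the same rule. Of 22 further collagen-modifying and collagen-folding genes, 0 of 21 tested were higher in the culture in code 1, 2 of 22 in code 2 and 2 of 22 in code 4, beside 5.76%, 5.5% and 4.86% of all genes. Higher in the tail were 2, 1 and 0, beside 13.6%, 13.6% and 13% of all genes. P4hb, the partner of both alpha subunits, lay at 875, 802 and 1091 CPM in the culture and at 446, 391 and 493 CPM in the tail, with ratios of 1.96 (1.90 to 2.03), 2.05 (1.95 to 2.16) and 2.21 (2.08 to 2.35). P3h4 at 2.06 in code 2 and the prolyl isomerase Fkbp7 at 2.08 in code 4 completed the genes counted as higher. P3h2, a prolyl 3-hydroxylase, was lower at 0.281 in code 1, and Creb3l1, a transcription factor of the secretory pathway, was lower at 0.489 in code 1 and 0.392 in code 2. The third prolyl hydroxylase alpha subunit, P4ha3, did not follow P4ha1 and P4ha2, with ratios of 0.901 (0.803 to 1.01), 1.30 (1.06 to 1.62) and 0.797 (0.614 to 1.03). Of the tested genes on this list that were never counted, Colgalt2 had the smallest ratio, 0.527 in code 2, and Fkbp10, the isomerase that works with Plod2, the largest, 1.81 in code 2. The median log2 ratio of this list was 0.45, 0.56 and 0.27, below that of the members.

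Among 17 genes of propeptide processing and fibril assembly, 5 of 13 tested were higher in the culture in code 1. Code 2 had 5 of 15 and code 4 had 6 of 13. Of all genes, 5.76%, 5.5% and 4.86% were higher in the culture in codes 1, 2 and 4. Higher in the tail were 1, 3 and 2, beside 13.6%, 13.6% and 13% of all genes. Those higher in the culture in all 3 codes were Postn, a matrix protein that binds Bmp1, at 5.60, 7.04 and 14.7, Fn1 (fibronectin) at 4.02, 4.91 and 5.45, Fmod (fibromodulin, which binds collagen beside its crosslink sites) at 6.75, 8.39 and 7.30, Bgn (biglycan) at 4.39, 4.56 and 3.27, and Fbln5 (fibulin 5) at 2.46, 3.28 and 2.71. Dcn (decorin) was added in code 4 at 18.3. Those higher in the tail were Adamts2, a procollagen N-proteinase, at 0.0901 in code 1 and 0.141 in code 2, Adamts3 at 0.252 in code 2 and 0.131 in code 4, and Pcolce2 at 0.226 in code 2 and 0.243 in code 4. Bmp1, the proteinase that cuts the propeptide of Lox, was at 0.685, 0.753 and 0.503, and Lum (lumican) at 1.93 in code 4 had the largest ratio of the genes never counted.

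Of the 18 collagen chains, 4 of 17 tested were higher in the culture in code 1 (Col11a1, Col9a3, Col4a1 and Col4a2). Code 2 had 2 of 18 (Col4a1 and Col4a2) and code 4 had 2 of 18 (Col5a2 at 3.44 and Col14a1 at 2.23). Over all genes tested, the shares were 5.76%, 5.5% and 4.86%. Higher in the tail were Col6a2 in code 1 and, with Col11a2, in code 2, and Col11a2 and Col9a1 in code 4. These tail counts were below the shares over all genes, 13.6%, 13.6% and 13%. Col1a1, the main chain of tendon collagen, was at 0.861, 1.05 and 1.72 in codes 1, 2 and 4. Of the chains never counted, Col3a1 had the smallest ratio, 0.530 in code 1, and Col2a1 the largest, 1.97 in code 1.

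P4ha1, P4ha2 and Plod2 are known targets of hypoxia-inducible factors, and Lox, Loxl2 and Plod2 are known to respond to TGFβ, so further genes of both responses were counted. Of 19 other hypoxia-inducible genes in the files, 13 of 17 tested were higher in the culture in code 1. Code 2 had 16 of 18 and code 4 had 14 of 18. Over all genes tested, the shares were 5.76%, 5.5% and 4.86% in codes 1, 2 and 4. In each code 0 were higher in the tail, beside 13.6%, 13.6% and 13% of all genes. The median log2 ratio was 1.74, 2.03 and 1.72, beside -0.21, -0.18 and -0.18 over all genes tested. Egln3, a prolyl hydroxylase that marks hypoxia-inducible factors for decay, had ratios of 15.0, 17.9 and 12.7, the oxidase Ero1l 9.02, 10.3 and 13.03, and the glycolytic enzymes Pgk1 8.44, 7.92 and 7.61 and Aldoa 5.35, 6.71 and 4.92. Slc2a1, Ldha, Bnip3, Ankrd37, Pdk1, Eno1, Higd1a and Mif were counted in all 3 codes as well. Ndrg1 was counted in codes 2 and 4, Pfkfb3 in codes 1 and 2, and Adm and Ddit4 in code 2. Car9, carbonic anhydrase 9, was counted in code 4, with 193 UMIs in the culture and 1 UMI in the tail. It reached the detection minimum of 10% of cells through the culture alone, where it was high. Bnip3l at 1.14 in code 1 and Vegfa at 1.90 in code 2 bounded the ratios of the genes never counted.

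Of 9 other TGFβ response genes, 3 of 8 tested were higher in the culture in code 1, 4 of 8 in code 2 and 2 of 7 in code 4. Over all genes tested, the shares were 5.76%, 5.5% and 4.86%. In each code 0 were higher in the tail, beside 13.6%, 13.6% and 13% of all genes. Skil, a feedback inhibitor of SMAD signaling, was counted in all 3 codes at 3.40, 3.63 and 2.80. Ctgf and Tagln were counted in codes 1 and 2, and Tgfbi in codes 2 and 4. Cyr61 had the smallest ratio of the others at 0.695 in code 4, and Acta2 the largest at 1.45 in code 1. The median log2 ratio of this list was 0.54, 0.60 and 0.04 in codes 1, 2 and 4, beside -0.21, -0.18 and -0.18 over all genes. The part of either response in the difference was not tested.

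Across all clusters, the members fell into different patterns. In the tail, the 5 highest levels of Lox were in code 1 at 240 CPM, code 9 at 179 CPM, code 2 at 105 CPM, code 4 at 27.8 CPM and code 5 at 25.9 CPM, the last 2 of which had overlapping intervals. By its markers code 5 of the tail was muscle-like, with a summed level of 3841 CPM. Code 9 was left unnamed, since it had 4495 CPM of tendon markers and 749 CPM of white blood cell markers. In the culture they were in code 1 at 293, code 2 at 252, code 9 at 228, code 4 at 155 and code 7 at 46.6 CPM. P4ha1 was found more widely. It lay at 131 CPM in tail code 3, 103 CPM in code 8 (epithelium-like by its markers), 85.4 CPM in code 11 (endothelium-like) and 70.2 CPM in code 5, where P4ha2 lay at 23.3, 22.4, 3.53 and 11.1 CPM. In tail code 11 Plod1 stood out instead, at 108 CPM, while Plod2 was at 19.1 CPM. Tail code 10 (nerve-like) had the members at or near 0, apart from P4ha1 at 34.4 CPM, Plod3 at 14.2 CPM, Plod2 at 8.30 CPM and P4ha2 at 4.15 CPM.

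The highest hydroxylase levels of the culture were not in its tendon cells. Code 13 (43 cells, found in the culture alone) had the highest level of Loxl2 at 1003 CPM, P4ha1 at 1314 CPM, P4ha2 at 943 CPM, Plod2 at 1645 CPM and Plod3 at 243 CPM, with the Plod2 level close to the 1634 CPM of code 4. These cells had 2.43 CPM of Lox, and Loxl1, Loxl3 and Loxl4 had no UMI. Their marker levels were 454 CPM for Sox17, 94.7 CPM for Foxa2 and 340.1 CPM for Epcam, with Scx at 19.4 CPM. The summed level of 4 pluripotency markers, 2 of them with no UMI, was 3265 CPM and that of 3 endoderm markers 624 CPM. Loxl2 was thus at its highest in cells nearly without the 4 other LOX family genes.

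**Figure D5:**
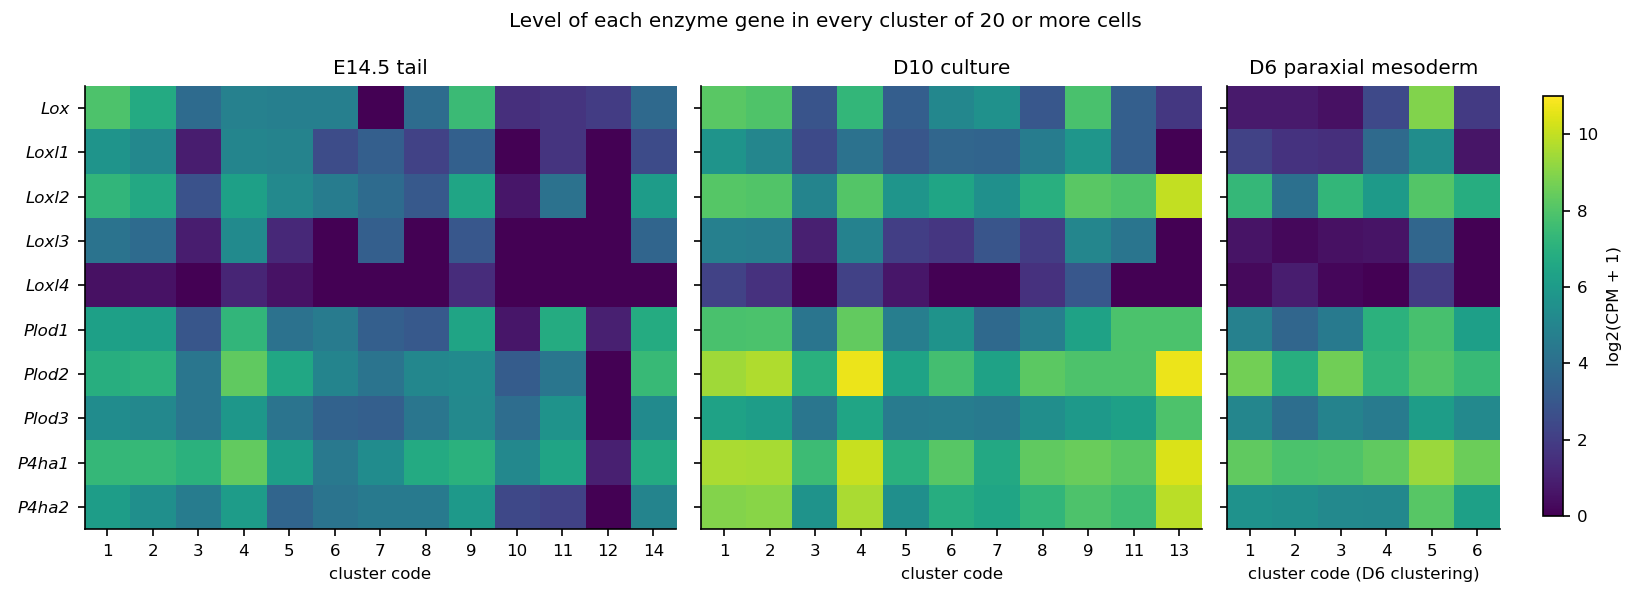
Level of the 10 enzyme genes as log2(CPM + 1) in every cluster of at least 20 cells of the E14.5 tail, the D10 culture and D6 PM, whose codes come from a separate clustering. Lox is high in codes 1, 2 and 9 of the culture and the tail and in code 5 of D6 PM, where it reached 482 CPM, and code 13 of the culture combines high Plod2, P4ha1, P4ha2 and Loxl2 with almost no Lox.

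At D6, Lox was found almost entirely in 1 cluster. In D6 PM it lay at 0.715, 0.739, 0.393, 4.44 and 2.64 CPM in codes 1, 2, 3, 4 and 6, and at 482 CPM in code 5 (662 cells). Code 5 was also rich in Col1a1 at 3858 CPM and Dcn at 901 CPM, while Scx lay at 5.43 CPM. It had the highest level of 9 of the 10 members among the D6 clusters, with Plod2 (397 CPM in code 1 against 256 CPM in code 5) as the exception. Lox made up 60.1% of its LOX family UMIs, and P4ha2 30.5% (29.3 to 31.7) of its alpha subunit UMIs, against 9.62% to 16.9% in the other D6 clusters.

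Code 4 of D6 PM had the highest levels of Meox1 (187 CPM) and Tcf15 (113 CPM), which mark somites, and served as the PM reference. Culture tendon cells exceeded it in Lox by 65.9-fold (45.2 to 100.04), in P4ha2 by 14.8-fold (12.9 to 17.1) and in Plod2 by 4.56-fold (4.27 to 4.89). For Loxl3 the value was 54.5-fold (18.5 to 265), which rests on 3 UMIs in these D6 cells, no more than the floor. The step was smaller for Loxl2 at 4.34 (3.91 to 4.83), Loxl1 at 3.81 (3.02 to 4.85), Plod3 at 3.43 (2.88 to 4.11), P4ha1 at 2.42 (2.31 to 2.54) and Plod1 at 1.70 (1.57 to 1.83). Loxl4 had no UMI in these D6 cells and was at least 7.21-fold higher in culture code 1, with the group floor set at 3 counts. P4ha1 and Plod1, at 317 and 133 CPM in code 4 of D6 PM, were the 2 with the smallest step. Plod2, at 151 CPM there, had a larger step than either. Day, medium and library differed together between these samples and cannot be told apart.

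The pattern of each member over 21 clusters of culture and tail with at least 50 cells was compared with 8271 genes by Pearson's r of log2(CPM + 10). The points share libraries, depth and the collagen-producing codes, so r is a description without a p-value. Many of the genes named as most like a member changed with log2(CPM + 1) or with the clusters of all 3 libraries, as given at the end. Plod2 was the gene most like P4ha1 and most like P4ha2, with r of 0.95 for Plod2 and P4ha1, 0.93 for Plod2 and P4ha2 and 0.91 for P4ha1 and P4ha2. P4hb (0.95) and the cargo receptor Surf4 (0.94) followed for P4ha1, Adamts6 (0.90) for Plod2 and malic enzyme Me1 (0.92) for P4ha2. Lox lay apart from them, with r of 0.62 to Plod2, 0.61 to P4ha1 and 0.69 to P4ha2. It was most like Ednra (0.96), Gxylt2 (0.94) and Col1a1 (0.93).

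Loxl2 was nearer to the hydroxylases than to Lox, with Fn1 (0.96), Kdelr3 (0.92) and P4ha2 (0.91) as the genes most like it, against 0.75 for Lox. Plod1 was most like Emilin1 (0.92), Plod3 (0.91) and Tram2 (0.90), and Plod3 most like Calu (0.94), Surf4 (0.93) and Plpp5 (0.92). Loxl1 was most like Pdgfrl (0.93), Bicc1 (0.88) and Flnc (0.85), while for Loxl3 and Loxl4, both under the minimum level set for the genes ranked, r rests on low counts. Loxl3 was most like Tgfbi (0.91), Oaf (0.90) and Aebp1 (0.90). For Loxl4 the genes were Fstl3 (0.87), Gria3 (0.82) and Angptl2 (0.81). The lowest r between 2 members was 0.51, for Loxl4 and Plod1.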

How the data were processed

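Single-cell RNA-seq libraries of D6 PM, of the tail at E14.5 and of the culture at D10 were analysed. The authors deposited raw counts, 1 whole number of UMIs for each gene in each cell, from 10x 3′ v3 libraries processed with Cell Ranger and Seurat 3.0 per the labels. The authors removed low-quality cells and gave each cell a cluster code, and gave the codes no names in the files. Codes 1 and 2 were matched to the study's clusters by cell number and code 4 was named from marker genes, against its cell number. The genome build of these counts is not given in the sources used here. UMIs were summed per code and library and divided by the total (CPM). With 1 library per condition, no test between conditions was made. Intervals at 95% are Clopper-Pearson for shares, exact Poisson for levels, exact conditional for ratios, and normal on the log scale for ratios of ratios. A count of 0 was given a floor of 3 counts. Shares of cells used cells thinned to 3000 UMIs, which left out 1157, 100 and 1006 cells.

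The members and gene lists were chosen with earlier results of these data known. For the TGFβ list, 1 gene is not reported here and was left out of its counts. The genes named were the members, the list genes past the 2-fold rule in any of the 3 codes with the largest and the smallest ratio of the others, the 3 genes most like each member, and markers. Scrublet (Scanpy 1.11.5, expected rate 6%, seed 1) called 116, 9 and 81 doublets, which were kept. Barcodes shared between libraries numbered 4, 10 and 3. In GENCODE M21, Lox, Loxl2, Loxl3, Plod2 and Plod3 have exons that overlap a gene on the other strand, and Loxl2 and Plod3 contain a microRNA gene on the same strand. The 3′ kit marks strand. Python 3.11.15, NumPy 2.4.6, SciPy 1.17.1, pandas 2.3.3 and Matplotlib 3.10.9 were used.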

Additional observations from a re-analysis of the deposited data

Results flagged for a closer look

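The Loxl3 ratio of culture over tail went opposite ways between codes, at 0.740 in code 4 and at 1.58 in code 1 and 1.90 in code 2. The difference was not tested between replicates, as there are none, and at equal depth the code 4 value was 1.14 (0.671 to 2.03), whose interval held 1. The code 2 value at that depth was 1.32 (0.710 to 2.73), whose interval held 1 as well.

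The P4ha2 ratio of code 2 over code 1 went opposite ways in the libraries, at 0.627 in the tail and 1.07 in the culture. This difference was not tested either.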

How the results depend on the processing

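No paired analysis was possible because each condition has 1 library and no test was made. The alternatives were the removal of called doublets or of cells under 1000 genes, the mean of each cell's CPM, a total without mitochondrial, ribosomal protein and haemoglobin genes, centring on the median gene, TMM scaling, thinning, other fold limits and, chosen after seeing the data, a ratio per collagen UMI. Under the first 2 and under the reduced total, all 30 ratios of culture over tail stayed within their intervals. Loxl3 in code 4 went from 0.740 to 1.14 (0.671 to 2.03, 19 tail UMIs) when cells were thinned to 3000 UMIs, and no other ratio whose interval left out 1 crossed it. After that thinning the intervals of Loxl3 in code 2, Plod3 in code 4 and the sparse Loxl4 in codes 1 and 4 held 1 as well. Loxl1 in codes 1 and 2, whose intervals held 1, crossed it in both under TMM scaling (1.20 and 1.13), centring on the median gene (1.14 and 1.08) and per collagen UMI (1.18 and 1.05), and in code 2 under thinning (1.19). The same thinning moved Plod3 in code 2 from 2.003 to 3.09 (1.74 to 6.05, 12 tail UMIs) and Lox in code 2 from 2.40 to 1.65, under the 2-fold limit, and the sparse Loxl4 moved between 3.14 and 10.8 in code 1 and had no ratio in code 2 after thinning, since no tail UMI was left. At a fold limit of 1.5, 7 members were higher in the culture in code 1, against 11.1% of all genes, and 1 (Loxl1) was higher in the tail in code 4, against 24.2%. At a fold limit of 3, 4 members were higher in the culture in code 2, against 2.55%. Every other count of members stayed within 1.5 times its value. Of the 30 genes named as most like a member, 17 were named again with log2(CPM + 1) and 11 with the clusters of all 3 libraries. Low depth limits Loxl4, and to a lesser degree Loxl3 and Loxl1.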
